A study of Homo sapiens with 8 samples.

Results

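Described here are 37 genes of glycolysis and of the hypoxia response in LS174T, an established line of human colon adenocarcinoma cells, out of 57736 genes listed in the table of each library. They were chosen by name and found through their Ensembl identifiers in all 8 tables: 17 glycolytic enzymes, 6 genes that carry glucose or lactate or set the flux through the pathway, and 14 other targets of the hypoxia-inducible factors (HIFs). RNA sequencing had been done to find genes that change on loss of the stem cell transcription factor ASCL2 or of the long non-coding RNA WiNTRLINC1. A gene entered the test where 2 or more libraries had a deposited value of 10 or higher, which 36 of the 37 met among 22100 genes in all. The exception was SLC2A3, the glucose carrier GLUT3, with values between 3 and 14 in all libraries.

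Glycolysis splits glucose into pyruvate in the cytosol, and tumour cells often send much of that pyruvate on to lactate, which monocarboxylate carriers export. When oxygen is low, the HIF alpha subunits escape prolyl hydroxylation and VHL-dependent degradation, pair with ARNT and bind a short core motif near genes of glycolysis, pH control, angiogenesis and mitochondrial turnover. Several of these genes also answer to MYC, growth factor signals and nutrient stress in well-oxygenated cells.

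The 4 groups held 2 libraries each. Cells of the WiNTRLINC1 line carry an inducible hairpin against WiNTRLINC1 and were treated with doxycycline at 1 ug/ml for 3 days or left untreated for the same time. Cells of the ASCL2 line carry an inducible hairpin against ASCL2 and were treated or left untreated in the same way. Both lines derive from LS174T cells that express the Tet repressor, so the untreated cells carry the hairpin cassette and the repressor too. The WiNTRLINC1 line came out of clones screened by RT-PCR for knockdown, and the ASCL2 line had been made for an earlier study. Doxycycline was given only to cells that carry a hairpin, and so the effects of the drug and of the hairpin cannot be told apart. The labels name no low-oxygen treatment. They do not say that replicates were separate cultures either, and a p-value here then covers no more than the spread among these libraries, which may be technical.

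The groups follow the sample titles, because in every sample the genotype label and the title disagree about the hairpin's target. ASCL2 had deposited values of 805 and 697 in the treated and 2540 and 2034 in the untreated WiNTRLINC1 line, and of 532 and 586 in the treated and 2855 and 3373 in the untreated ASCL2 line. It was lower with doxycycline in both lines and so does not settle which label is right. Deposited totals ran from 21524463 to 22941231 per library, and 31503 to 33959 genes had a value above 0. All 10 colon epithelium markers on the list (EPCAM, CDH1, CDH17, KRT8, KRT19, KRT20, CDX1, CDX2, VIL1 and LGALS4) had at least 100 in every library, and 0 of the 7 fibroblast, 7 immune and 4 endothelial markers found did. Summed fibroblast markers lay at 96 to 135 in the treated and 100 to 111 in the untreated WiNTRLINC1 line, and at 187 to 193 in the treated and 303 to 309 in the untreated ASCL2 line, where COL1A1 had 60 and 99 treated and 200 and 222 untreated. Other fibroblast markers did not follow COL1A1 there: PDGFRB had 71 and 66 treated and 54 and 47 untreated, and COL3A1 had 41 and 26 treated and 42 and 25 untreated. DCN, LUM and THY1 were at 0 in at least 1 library. Summed immune markers lay between 48 and 110 and summed endothelial markers between 9 and 37 over all groups. The part of these markers in the results was not tested. In such bulk samples fewer cells of a type and less RNA per cell cannot be told apart.

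The core letters of the HIF motif, ACGTG or GCGTG on either strand, were looked for from 250 bases before to 50 bases after the gene start in RefSeq (GRCh38.p14), where 33 of the 37 genes had an entry. ACGTG was found in 14 and GCGTG in 15 of the 33, and 24 held either one. Of all 27305 promoters of this length, 21.6% held ACGTG, 36.3% held GCGTG and 48.4% held either, and among the promoters of genes tested the shares were 26.1%, 48.9% and 61.3%. Shown are genes that were higher with doxycycline in both lines (ENO2, CA12 and PFKP) and a pair of those that changed in opposite directions in the lines (PGK1 and KDM3A), which were added after their values were seen. Capitals mark the motif letters as they read on the strand printed, where CACGT and CACGC are the motifs of the other strand. The motifs do not overlap in the runs printed, and over all promoters a CACGTG counted once on each strand.
ENO2, neuron-type enolase, chr12:6914330-6914629, plus strand, 1 ACGTG: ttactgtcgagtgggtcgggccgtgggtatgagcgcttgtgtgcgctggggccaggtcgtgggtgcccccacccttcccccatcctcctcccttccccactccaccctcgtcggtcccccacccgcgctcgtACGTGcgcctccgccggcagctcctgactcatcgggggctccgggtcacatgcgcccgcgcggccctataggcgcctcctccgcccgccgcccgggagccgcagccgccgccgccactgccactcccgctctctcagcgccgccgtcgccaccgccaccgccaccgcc
CA12, carbonic anhydrase XII, chr15:63381797-63382096, minus strand, 2 GCGTG: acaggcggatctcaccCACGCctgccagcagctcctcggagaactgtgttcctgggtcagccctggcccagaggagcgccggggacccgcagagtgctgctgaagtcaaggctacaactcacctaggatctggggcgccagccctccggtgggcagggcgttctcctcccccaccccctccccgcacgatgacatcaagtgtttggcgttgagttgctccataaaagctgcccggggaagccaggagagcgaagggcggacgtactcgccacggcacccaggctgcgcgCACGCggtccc
PFKP, platelet-type phosphofructokinase, chr10:3067720-3068019, plus strand, neither motif: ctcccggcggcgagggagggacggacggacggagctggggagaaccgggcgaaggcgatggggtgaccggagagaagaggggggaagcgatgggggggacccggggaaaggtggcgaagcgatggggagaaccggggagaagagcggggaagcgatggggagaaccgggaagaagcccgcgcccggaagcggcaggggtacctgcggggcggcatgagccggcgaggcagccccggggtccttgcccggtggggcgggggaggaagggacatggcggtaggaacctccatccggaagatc
PGK1, phosphoglycerate kinase, chrX:78103998-78104297, plus strand, 3 ACGTG and 1 GCGTG: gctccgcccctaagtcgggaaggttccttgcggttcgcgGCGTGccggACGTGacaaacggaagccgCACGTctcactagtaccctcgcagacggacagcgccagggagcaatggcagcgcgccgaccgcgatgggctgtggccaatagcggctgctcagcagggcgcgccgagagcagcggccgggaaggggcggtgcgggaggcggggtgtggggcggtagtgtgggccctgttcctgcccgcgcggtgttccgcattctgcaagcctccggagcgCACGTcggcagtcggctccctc
KDM3A, a histone demethylase, chr2:86441121-86441420, plus strand, 1 GCGTG: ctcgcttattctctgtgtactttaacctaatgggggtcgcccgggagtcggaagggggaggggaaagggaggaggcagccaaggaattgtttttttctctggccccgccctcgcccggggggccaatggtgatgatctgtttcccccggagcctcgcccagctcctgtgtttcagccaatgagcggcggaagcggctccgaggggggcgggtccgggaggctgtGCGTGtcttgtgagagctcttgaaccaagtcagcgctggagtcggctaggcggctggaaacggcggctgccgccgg
Of the 6 genes higher in both lines that had an entry, ENO2 and CA12 held a motif in this window and PFKP, PGAM1, SLC16A3 and MXI1 held neither. A match is a run of letters and not a binding site, and no match says only that the letters are not in this window.

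With doxycycline 15 of the 36 tested genes changed in each line, and 10 of them were called in both lines, 7 in the same direction and 3 in opposite ones. Of the 36, 11 rose, 4 fell and 21 did not pass the test in the WiNTRLINC1 line (limma on log2(value + 1), Benjamini-Hochberg adjusted p under 0.05 over all genes), where 18.6% of all genes tested were called, 9.54% higher and 9.03% lower. In the ASCL2 line 12 rose, 3 fell and 21 did not pass, where 26.6% of all genes tested were called, 13.9% higher and 12.7% lower. The median log2 fold change of the 36 was 0.12 in the WiNTRLINC1 line and 0.18 in the ASCL2 line, beside 0.01 for all genes tested in either line. PFKP, PGAM1, ENO2, SLC16A3, CA12, NDRG1 and MXI1 rose in both lines, 7 of 36 where 4.19% of all genes tested did so. By limma 0 of the 36 fell in both lines, also at an unadjusted p under 0.05, against 2.95% of all genes tested. PGK1 and KDM3A fell in the WiNTRLINC1 line and rose in the ASCL2 line, and HK1 did the reverse. Of all genes tested 1.09% were called in the directions of PGK1 and KDM3A and 0.851% in those of HK1. Fitted without limma's mean-variance trend, HK2, PFKL, PFKP, PGK1, PGAM1, LDHB, BNIP3 and NDRG1 were not called in the WiNTRLINC1 line (adjusted p between 0.0545 and 0.144), nor HK1, PGK1, PGAM1, ENO1, PKM, LDHA, CA9 and MXI1 in the ASCL2 line (adjusted p between 0.0503 and 0.168). Without the filter on low values the calls of PFKL, PGAM1 and BNIP3 in the WiNTRLINC1 line (adjusted p between 0.0534 and 0.135) and of PGK1, ENO1 and CA9 in the ASCL2 line (adjusted p between 0.0546 and 0.155) were lost. Over all 37 genes, SLC2A3 included, both treated libraries lay above both untreated ones in 18 and below them in 9 in the WiNTRLINC1 line. The untested SLC2A3 was among the 18, and over all genes tested the shares were 28.2% and 26.5%. In the ASCL2 line the counts were 19 and 6, beside 30.8% and 29.8% of all genes tested. The 2 comparisons use separate treated and untreated libraries.

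**Figure D1:**
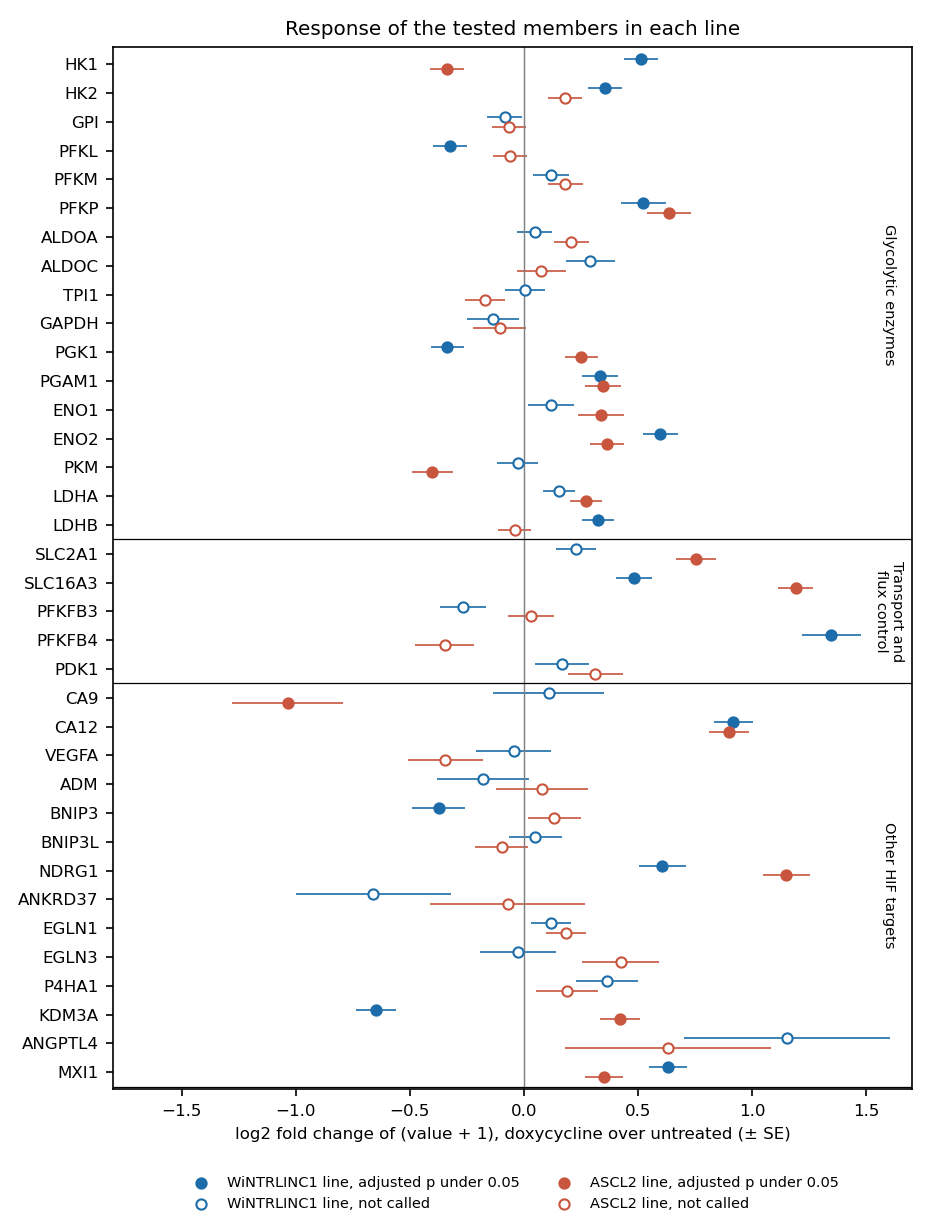
Log2 fold change of the deposited value plus 1, doxycycline over untreated, for the 36 tested genes (points) with the standard error of the fit (lines), WiNTRLINC1 line in blue and ASCL2 line in red; filled points have an adjusted p under 0.05. PFKFB4 stands at 1.35 in the WiNTRLINC1 line and -0.35 in the ASCL2 line, whereas the points of CA12 (0.92 and 0.90) nearly coincide.

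Among the 17 glycolytic enzymes 6 rose, 2 fell and 9 did not pass in each line, but only PFKP, PGAM1 and ENO2 rose in both. Their median log2 fold change was 0.12 in the WiNTRLINC1 line and 0.18 in the ASCL2 line. Set per kilobase of merged exon, GAPDH had the highest mean level, at 37310 per kb in the untreated WiNTRLINC1 line and 53910 per kb in the untreated ASCL2 line. ALDOC, at 310.5 per kb, was lowest of the 17 in the untreated WiNTRLINC1 line, and HK2, at 359.0 per kb, in the untreated ASCL2 line.

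The hexokinases trap glucose in the cell as glucose 6-phosphate, HK1 as the form found in most tissues and HK2 as the inducible form. HK1 (ENSG00000156515, chromosome 10) had 4561 and 4512 in the treated and 3249 and 3108 in the untreated WiNTRLINC1 line, and 3793 and 3978 in the treated and 5184 and 4658 in the untreated ASCL2 line. Both treated libraries lay above both untreated ones in the WiNTRLINC1 line and below them in the ASCL2 line. The log2 fold change was 0.51 ± 0.0746 (SE, n = 2 per group; adjusted p = 0.000195) in the WiNTRLINC1 line and -0.34 ± 0.0746 (adjusted p = 0.00356) in the ASCL2 line. These responses differed by 0.85 ± 0.106 (adjusted p = 6.4e-05). HK2 (ENSG00000159399, chromosome 2) had 3722 and 4088 in the treated and 3004 and 3094 in the untreated WiNTRLINC1 line, and 2472 and 2455 in the treated and 2250 and 2104 in the untreated ASCL2 line. Treated libraries were above untreated ones in each line without overlap. It rose in the WiNTRLINC1 line by 0.36 ± 0.0759 (adjusted p = 0.0041), a call lost without the second treated library of that line (adjusted p = 0.0687), and its log2 fold change was 0.18 ± 0.0759 in the ASCL2 line (adjusted p = 0.098). Of HK1 and HK2 together, per kilobase, HK2 made up 45.9% and 48.5% in the treated and 49.0% and 50.8% in the untreated WiNTRLINC1 line, and 40.4% and 39.1% in the treated and 31.1% and 31.9% in the untreated ASCL2 line. The HK2 share was thus lower with doxycycline in the first of these lines and higher in the other, with no overlap of libraries in either. It leaves out HK2P1, a copy of HK2 elsewhere in the genome that can share its reads. HK2P1 had 1234 and 1355 in the treated and 814 and 892 in the untreated WiNTRLINC1 line. In the ASCL2 line it had 380 and 353 treated and 344 and 293 untreated. With values of that size left out, the narrow separation in the WiNTRLINC1 line is uncertain.

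Phosphofructokinase commits fructose 6-phosphate to glycolysis and is built from liver (PFKL), muscle (PFKM) and platelet (PFKP) subunits. PFKP (ENSG00000067057, chromosome 10) had 3378 and 3212 in the treated and 2578 and 2038 in the untreated WiNTRLINC1 line, and 2723 and 2898 in the treated and 1768 and 1851 in the untreated ASCL2 line. Every treated library was above every untreated one of its line. PFKP rose 1.44-fold (log2 0.52 ± 0.0972, adjusted p = 0.0015) in the WiNTRLINC1 line and 1.55-fold (log2 0.64 ± 0.0972, adjusted p = 0.00022) in the ASCL2 line. PFKL (ENSG00000141959, chromosome 21) had 11042 and 9846 in the treated and 13667 and 12458 in the untreated WiNTRLINC1 line, and 9523 and 9282 in the treated and 9850 and 9766 in the untreated ASCL2 line. It was lower with doxycycline in every library of both lines, but the difference between the responses did not pass (-0.26 ± 0.108, adjusted p = 0.124). The fall of 0.32 ± 0.0761 on the log2 scale passed in the WiNTRLINC1 line (adjusted p = 0.00776) but not without its first untreated library (adjusted p = 0.0846), without its second treated library (adjusted p = 0.123) or with the line fitted alone (adjusted p = 0.0607). In the ASCL2 line the value was -0.06 ± 0.0761 (adjusted p = 0.609). PFKM did not pass in either line, at 0.12 and 0.18. Of the 3 subunits per kilobase, PFKP made up 26.9% and 27.8% in the treated and 19.9% and 17.7% in the untreated WiNTRLINC1 line, and 26.8% and 28.6% in the treated and 19.3% and 20.5% in the untreated ASCL2 line. The PFKP share was higher in all 4 treated libraries than in any of the 4 untreated ones.

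**Figure D2:**
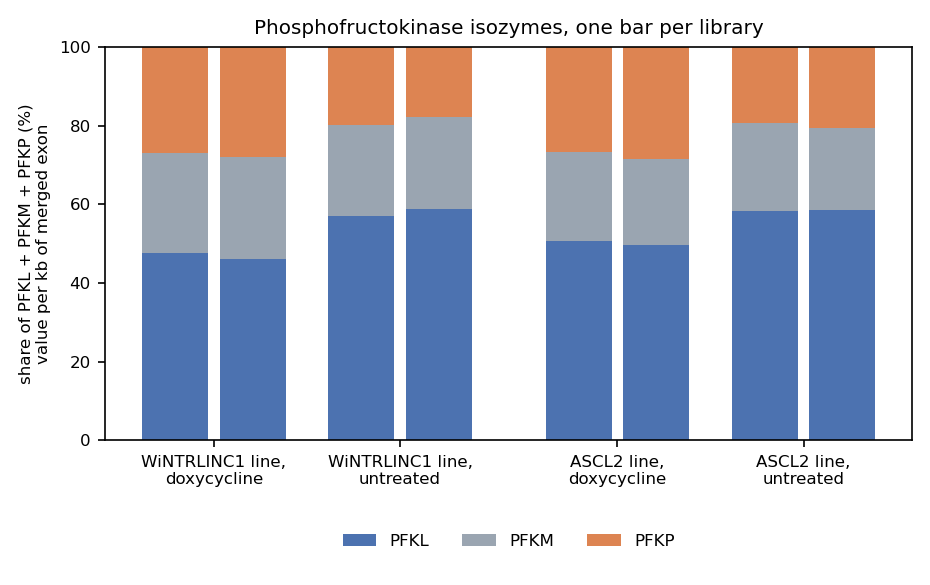
Share in percent of the PFKL (blue), PFKM (grey) and PFKP (orange) values per kilobase of merged exon in their sum, 1 bar per library, treated left of untreated for each line. The PFKP part spans 26.8% to 28.6% in the treated libraries and 17.7% to 20.5% in the untreated ones.

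Lower glycolysis turns triose phosphates into pyruvate and pays back ATP. PGK1 (ENSG00000102144, chromosome X), which makes the first of that ATP, had 8359 and 8844 in the treated and 10968 and 10761 in the untreated WiNTRLINC1 line, and 10781 and 11928 in the treated and 9442 and 9615 in the untreated ASCL2 line. Treated libraries lay below untreated ones in the WiNTRLINC1 line and above them in the ASCL2 line. It fell by 0.34 ± 0.072 on the log2 scale in the WiNTRLINC1 line (adjusted p = 0.00411), rose by 0.25 ± 0.072 in the ASCL2 line (adjusted p = 0.0178), and the difference of -0.59 ± 0.102 passed (adjusted p = 0.00106). The fall was lost without the WiNTRLINC1 line's first treated library (adjusted p = 0.0568), and the rise was not called without the first untreated (adjusted p = 0.0837), the second untreated (adjusted p = 0.0568) or the second treated library of the ASCL2 line (adjusted p = 0.177). PGAM1 (ENSG00000171314, chromosome 10), the phosphoglycerate mutase, had 11182 and 12637 in the treated and 9105 and 9784 in the untreated WiNTRLINC1 line, and 11461 and 12657 in the treated and 9544 and 9414 in the untreated ASCL2 line. The treated libraries were the higher ones in each line. Its rise was 1.26-fold in the WiNTRLINC1 line (log2 0.33 ± 0.0797, adjusted p = 0.00858) and 1.27-fold in the ASCL2 line (log2 0.35 ± 0.0797, adjusted p = 0.00482). The first of these calls was lost without the first untreated (adjusted p = 0.0837) or the second treated library of the WiNTRLINC1 line (adjusted p = 0.134), and the other without the second treated library of the ASCL2 line (adjusted p = 0.0695).

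Enolase makes phosphoenolpyruvate, ENO1 as the common form and ENO2 as the form best known from neurons. ENO2 (ENSG00000111674, chromosome 12), whose promoter is printed above, had 2693 and 2672 in the treated and 1815 and 1731 in the untreated WiNTRLINC1 line, and 2717 and 2561 in the treated and 1998 and 2109 in the untreated ASCL2 line. No treated library overlapped an untreated one. The rise was 1.51-fold (log2 0.60 ± 0.075, adjusted p = 5.12e-05) in the WiNTRLINC1 line and 1.28-fold (log2 0.36 ± 0.075, adjusted p = 0.00231) in the ASCL2 line, and it was called under every alternative run in both lines. ENO1 (ENSG00000074800, chromosome 1) had 35473 and 34199 in the treated and 36697 and 27979 in the untreated WiNTRLINC1 line, and 34931 and 37025 in the treated and 29003 and 27938 in the untreated ASCL2 line. The groups overlapped in the WiNTRLINC1 line, whose untreated libraries lay far apart, and did not overlap in the ASCL2 line. ENO1 rose by 0.34 ± 0.101 on the log2 scale in the ASCL2 line (adjusted p = 0.0229), a call that leaving out any of that line's 4 libraries ended (adjusted p between 0.0597 and 0.143). In the WiNTRLINC1 line the value was 0.12 ± 0.101 (adjusted p = 0.482), and 0.0318 was the adjusted p without its first untreated library.

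PKM (ENSG00000067225, chromosome 15), the pyruvate kinase of most proliferating cells, had 56919 and 59447 in the treated and 59940 and 58621 in the untreated WiNTRLINC1 line, and 81681 and 80330 in the treated and 117588 and 97309 in the untreated ASCL2 line. The groups overlapped in the WiNTRLINC1 line and stood apart in the ASCL2 line. It fell by 0.40 ± 0.0892 on the log2 scale in the ASCL2 line (adjusted p = 0.0038), but was not called without the first untreated library of that line (-0.27, adjusted p = 0.0614). The log2 fold change in the WiNTRLINC1 line was -0.03 ± 0.0892 (adjusted p = 0.884). Lactate dehydrogenase then reduces pyruvate to lactate, with LDHA as the muscle-type and LDHB as the heart-type subunit. LDHA (ENSG00000134333, chromosome 11) had 23730 and 25101 in the treated and 21480 and 22353 in the untreated WiNTRLINC1 line, and 20385 and 20844 in the treated and 16685 and 17464 in the untreated ASCL2 line. Treated libraries were above untreated ones in both lines. LDHA rose by 0.27 ± 0.0697 in the ASCL2 line (adjusted p = 0.00935), though not without the first untreated (adjusted p = 0.0694) or second treated library of that line (adjusted p = 0.0603), and had 0.16 ± 0.0697 in the WiNTRLINC1 line (adjusted p = 0.147). LDHB (ENSG00000111716, chromosome 12) had 17574 and 16198 in the treated and 13939 and 13028 in the untreated WiNTRLINC1 line, and 11453 and 10942 in the treated and 11622 and 11418 in the untreated ASCL2 line. The treated libraries were higher in the WiNTRLINC1 line and overlapped the untreated ones in the ASCL2 line. LDHB rose by 0.32 ± 0.072 in the WiNTRLINC1 line (adjusted p = 0.0053) and had -0.04 ± 0.072 in the ASCL2 line (adjusted p = 0.725). That rise was not called without the second untreated (adjusted p = 0.0529) or first treated library of the WiNTRLINC1 line (adjusted p = 0.0788).

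The remaining enzymes (GPI, PFKM, ALDOA, ALDOC, TPI1 and GAPDH) passed in neither line, with log2 fold changes between -0.14 and 0.29 in the WiNTRLINC1 line and between -0.17 and 0.21 in the ASCL2 line. Under quantile normalization limma called ALDOA higher in the WiNTRLINC1 line (adjusted p = 0.0175). With the replicate number as a block it was called higher in the ASCL2 line (adjusted p = 0.0427). GAPDH, widely used as a reference transcript, had 99626 and 102193 in the treated and 119933 and 102515 in the untreated WiNTRLINC1 line, and 132215 and 167141 in the treated and 147168 and 174218 in the untreated ASCL2 line. Its groups overlapped in the ASCL2 line and were barely separated in the WiNTRLINC1 line.

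All 17 enzymes together took 1.61% and 1.61% of the deposited total in the treated and 1.68% and 1.52% in the untreated WiNTRLINC1 line, and 1.82% and 1.95% in the treated and 1.98% and 2.06% in the untreated ASCL2 line. By this share the treated libraries thus fell within the untreated range in the WiNTRLINC1 line and just below it in the ASCL2 line. As summed values, the 17 enzymes had 352803 and 360200 treated and 374455 and 339698 untreated in the WiNTRLINC1 line. In the ASCL2 line they had 403255 and 446942 treated and 439248 and 444071 untreated, so that the groups overlapped in both lines. GAPDH and PKM made up much of that sum. Without GAPDH the summed value was 253177 and 258007 in the treated and 254522 and 237183 in the untreated WiNTRLINC1 line, and 271040 and 279801 in the treated and 292080 and 269853 in the untreated ASCL2 line, so that the groups overlapped in both lines. Without GAPDH and PKM, the second of which was called lower in the ASCL2 line, the summed value was 196258 and 198560 in the treated and 194582 and 178562 in the untreated WiNTRLINC1 line, and 189359 and 199471 in the treated and 174492 and 172544 in the untreated ASCL2 line. With both genes left out the treated libraries were above the untreated ones in each line. The sum over all 17 and the sum without GAPDH did not show this order. In the WiNTRLINC1 line the gap was narrow, at 196258 treated against 194582 untreated. PKM was called lower in the ASCL2 line, so leaving it out moves the sum towards this order there. These sums are given as a description, with no test.

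Several enzymes have processed copies elsewhere in the genome that can share their reads, and how reads matching several places were counted is not given in the sources used here. Beside the value of the parent gene, the summed copies held between 38.3% and 57.9% for TPI1 over the 8 libraries, 22.9% to 47.4% for LDHA, 26.0% to 41.0% for LDHB, 22.2% to 43.1% for PGK1, 13.9% to 33.2% for HK2, 12.5% to 22.4% for PGAM1 and 11.6% to 28.5% for the 64 GAPDH copies. For PKM and ALDOA the summed copies held at most 13.7% and 10.1%, and for ENO1 at most 0.14%. The values of the enzymes with such copies are uncertain to that extent.

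**Figure D3:**
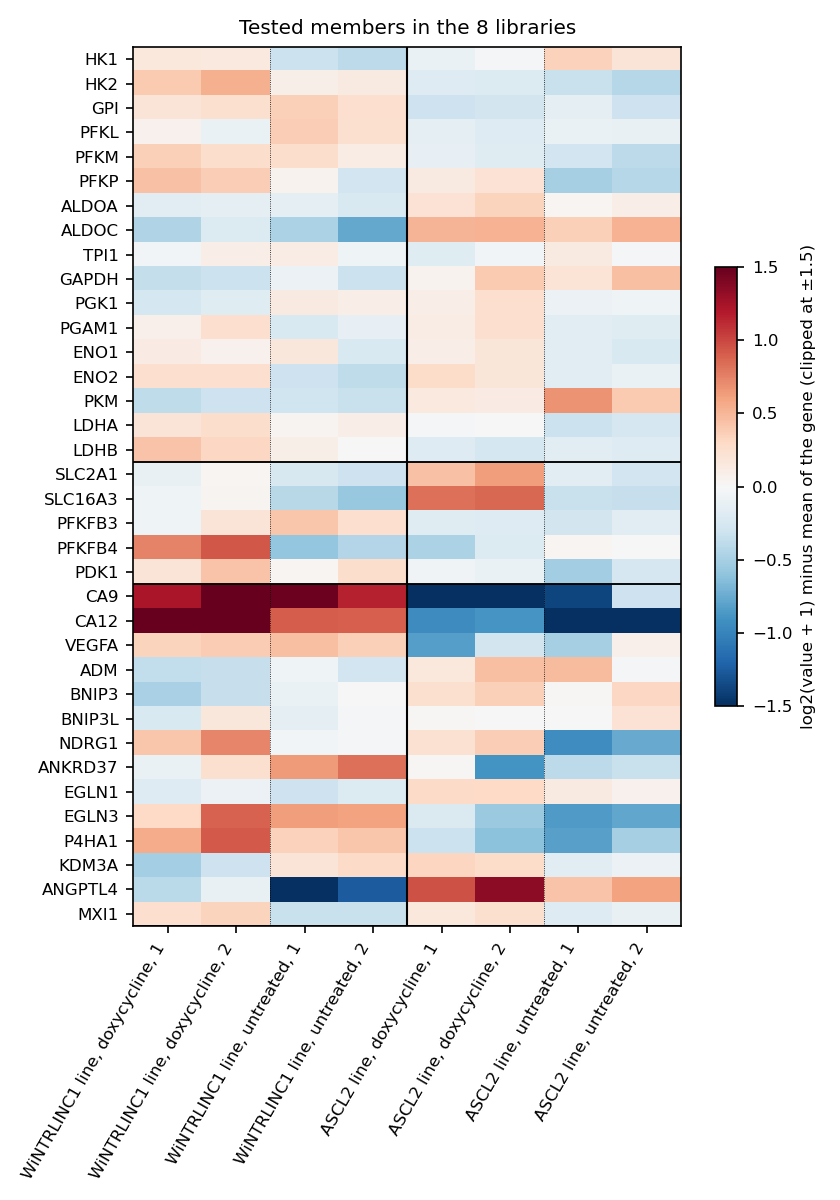
Log2 of the deposited value plus 1 minus the gene's mean over all 8 libraries, for the 36 tested genes (rows, grouped as enzymes, transport and flux control, and other HIF targets) in each library (columns), red above and blue below the mean, clipped at 1.5 either way. CA12 and CA9 divide the lines most visibly, and the rows of SLC16A3 and SLC2A1 each have their reddest cells in the treated ASCL2 line.

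Of the 5 tested genes of transport and flux control, 2 rose, 0 fell and 3 did not pass in each line, and SLC16A3 was the gene that rose in both (limma, with 1 lower in each line at an unadjusted p under 0.05). SLC16A3 (ENSG00000141526, chromosome 17), the lactate exporter MCT4, had 2642 and 2833 in the treated and 2073 and 1851 in the untreated WiNTRLINC1 line, and 4883 and 5024 in the treated and 2178 and 2164 in the untreated ASCL2 line. The treated ASCL2-line libraries stood far above the 6 others. It rose 2.28-fold in the ASCL2 line (log2 1.19 ± 0.0781, adjusted p = 8.06e-08), the smallest adjusted p of the 36 genes in that line, and 1.4-fold in the WiNTRLINC1 line (log2 0.48 ± 0.0781, adjusted p = 0.000484). The response was smaller in the WiNTRLINC1 line by 0.71 ± 0.11 on the log2 scale (adjusted p = 0.00045), and all 3 of these calls held under every alternative run.

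SLC2A1 (ENSG00000117394, chromosome 1), the glucose carrier GLUT1, had 1711 and 1892 in the treated and 1575 and 1499 in the untreated WiNTRLINC1 line, and 2517 and 2860 in the treated and 1662 and 1524 in the untreated ASCL2 line. Its treated libraries were higher in both lines, with a much wider gap in the ASCL2 line. The rise there was 1.69-fold (log2 0.75 ± 0.0888, adjusted p = 2.13e-05), against 0.23 ± 0.0888 in the WiNTRLINC1 line (adjusted p = 0.0933). The difference of -0.53 ± 0.126 passed (adjusted p = 0.0101), but not without the second treated library of the ASCL2 line (adjusted p = 0.0678) or the first treated library of the WiNTRLINC1 line (adjusted p = 0.0602).

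PFKFB4 (ENSG00000114268, chromosome 3) makes and breaks fructose 2,6-bisphosphate, the allosteric activator of phosphofructokinase. It had 600 and 681 in the treated and 239 and 263 in the untreated WiNTRLINC1 line, and 257 and 309 in the treated and 363 and 355 in the untreated ASCL2 line. The 2 treated WiNTRLINC1-line libraries were the highest of all 8, and in the ASCL2 line the treated libraries lay below the untreated ones. PFKFB4 rose 2.54-fold in the WiNTRLINC1 line (log2 1.35 ± 0.128, adjusted p = 3.91e-06), with a log2 fold change of -0.35 ± 0.128 in the ASCL2 line (adjusted p = 0.0579). The difference of 1.695 ± 0.181 was the largest among the 36 genes (adjusted p = 1.74e-05). Its relative PFKFB3 and the pyruvate dehydrogenase kinase PDK1 passed in neither line, at -0.27 and 0.17 in the WiNTRLINC1 line and at 0.03 and 0.31 in the ASCL2 line.

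**Figure D4:**
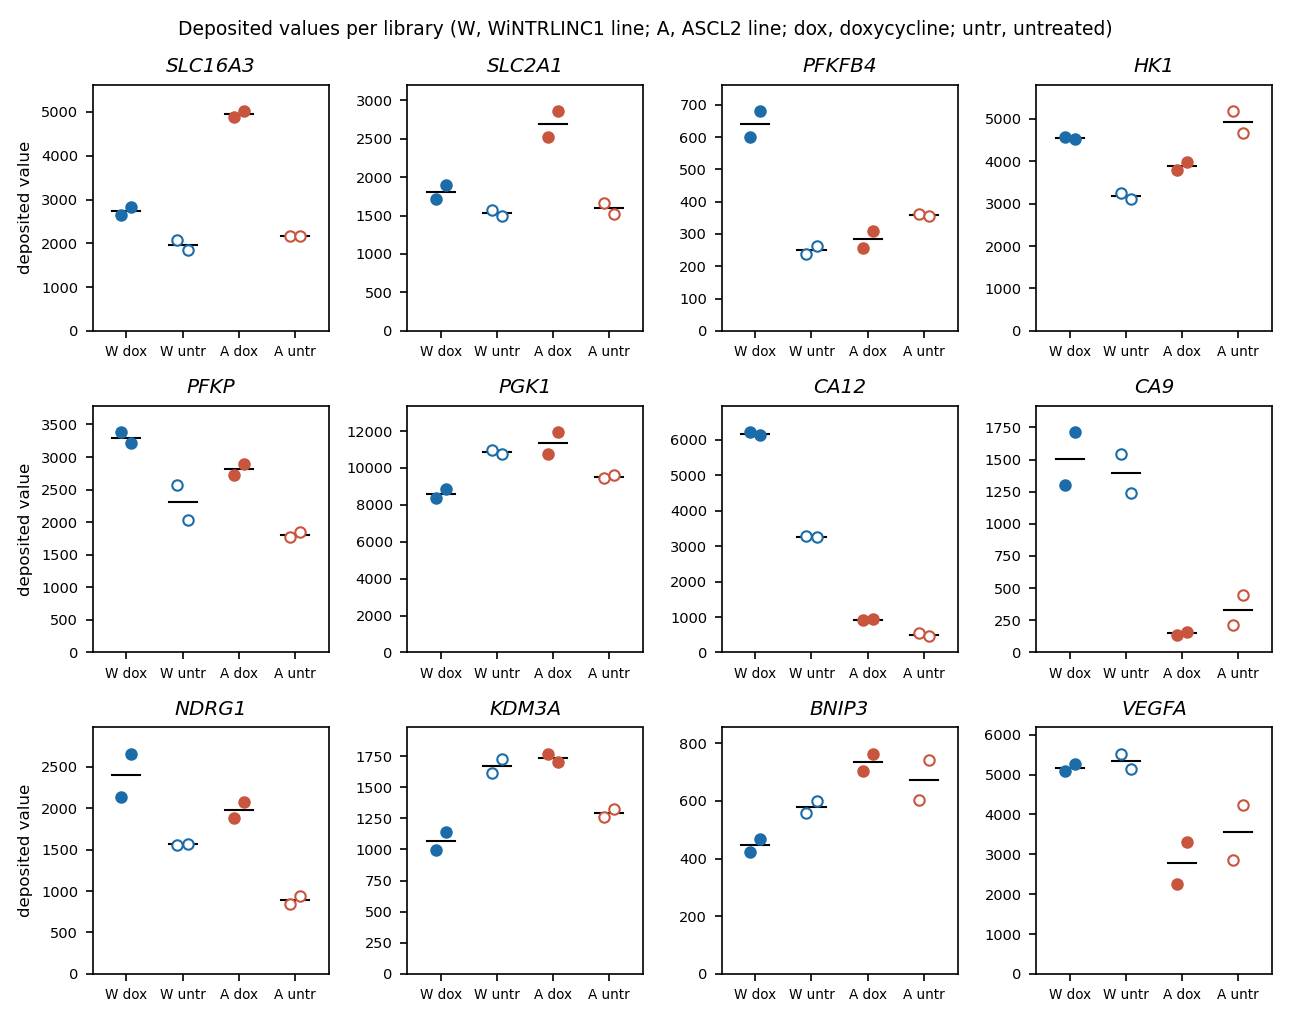
Deposited values (vertical axes from 0) in each library for 12 genes, with filled points for doxycycline, open points for untreated cells and a bar at the mean of each pair, WiNTRLINC1 line (W) in blue and ASCL2 line (A) in red. SLC16A3 reaches 4883 and 5024 in the treated ASCL2 line, PFKFB4 600 and 681 in the treated WiNTRLINC1 line, and HK1, PGK1 and KDM3A move in opposite directions in the lines.

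Among the 14 other HIF targets 3 rose, 2 fell and 9 did not pass in the WiNTRLINC1 line, and 4 rose, 1 fell and 9 did not pass in the ASCL2 line. Their median log2 fold change was 0.08 in the WiNTRLINC1 line and 0.19 in the ASCL2 line. CA12 (ENSG00000074410, chromosome 15) and CA9 are membrane carbonic anhydrases that help dispose of acid at the cell surface. CA12 had 6214 and 6149 in the treated and 3283 and 3264 in the untreated WiNTRLINC1 line, and 912 and 947 in the treated and 541 and 458 in the untreated ASCL2 line. Treated libraries were higher in both lines, on very different levels. The rise was 1.89-fold (log2 0.92 ± 0.0864, adjusted p = 3.69e-06) in the WiNTRLINC1 line and 1.87-fold (log2 0.90 ± 0.0864, adjusted p = 3.02e-06) in the ASCL2 line, and both calls held under every alternative run. The difference between these responses was 0.02 ± 0.122 on the log2 scale (adjusted p = 0.956).

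CA9 (ENSG00000107159, chromosome 9) did not follow CA12. It had 1299 and 1711 in the treated and 1544 and 1239 in the untreated WiNTRLINC1 line, and 139 and 162 in the treated and 213 and 447 in the untreated ASCL2 line. The groups overlapped in the WiNTRLINC1 line, and in the ASCL2 line both treated libraries were below the untreated ones, which themselves lay far apart. CA9 fell by 1.04 ± 0.243 on the log2 scale in the ASCL2 line (adjusted p = 0.00538), but not without the second untreated (-0.50, adjusted p = 0.0671) or the first treated library of that line (adjusted p = 0.0608) or with the line fitted alone (adjusted p = 0.0825). In the WiNTRLINC1 line the value was 0.11 ± 0.243 (adjusted p = 0.827). The difference of 1.14 ± 0.343 (adjusted p = 0.0356) was lost without any 1 of 6 libraries (adjusted p between 0.0596 and 0.159), the exceptions being the ASCL2 line's first untreated library and the first treated library of the WiNTRLINC1 line. Without the second untreated library of the ASCL2 line it was 0.61.

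NDRG1 (ENSG00000104419, chromosome 8), a stress-induced gene linked to differentiation of colon epithelium, had 2136 and 2654 in the treated and 1558 and 1569 in the untreated WiNTRLINC1 line, and 1881 and 2071 in the treated and 839 and 944 in the untreated ASCL2 line. All treated libraries exceeded all untreated ones across both lines. It rose 1.52-fold (log2 0.61 ± 0.103, adjusted p = 0.000711) in the WiNTRLINC1 line and 2.22-fold (log2 1.15 ± 0.103, adjusted p = 1.55e-06) in the ASCL2 line. The difference of -0.54 ± 0.145 (adjusted p = 0.0197) was lost without the first treated or either untreated library of the WiNTRLINC1 line or without the second treated or first untreated library of the ASCL2 line (adjusted p between 0.057 and 0.109). MXI1 (ENSG00000119950, chromosome 10), a partner of MAX that opposes MYC, had 1402 and 1493 in the treated and 934 and 935 in the untreated WiNTRLINC1 line, and 1313 and 1398 in the treated and 1033 and 1093 in the untreated ASCL2 line. Again no treated library overlapped an untreated one. MXI1 rose 1.55-fold (log2 0.63 ± 0.0835, adjusted p = 8.54e-05) in the WiNTRLINC1 line and 1.27-fold (log2 0.35 ± 0.0835, adjusted p = 0.00604) in the ASCL2 line, where the call was lost without the second treated library (adjusted p = 0.0693).

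KDM3A (ENSG00000115548, chromosome 2), which removes methyl groups from histone H3, had 993 and 1143 in the treated and 1615 and 1724 in the untreated WiNTRLINC1 line, and 1768 and 1706 in the treated and 1263 and 1329 in the untreated ASCL2 line. The treated libraries were the lower ones in the WiNTRLINC1 line and the higher ones in the ASCL2 line, with no overlap in either. KDM3A fell 1.57-fold in the WiNTRLINC1 line (log2 -0.65 ± 0.0882, adjusted p = 0.00011) and rose 1.34-fold in the ASCL2 line (log2 0.42 ± 0.0882, adjusted p = 0.00243). The difference of -1.07 ± 0.125 (adjusted p = 3.8e-05) and both responses held under every alternative run. BNIP3 (ENSG00000176171, chromosome 10), a mitophagy receptor, had 424 and 468 in the treated and 558 and 598 in the untreated WiNTRLINC1 line, and 704 and 763 in the treated and 603 and 741 in the untreated ASCL2 line. It was lower with doxycycline in the WiNTRLINC1 line and overlapping in the ASCL2 line. Its fall of 0.37 ± 0.115 on the log2 scale in the WiNTRLINC1 line (adjusted p = 0.034) was lost without any 1 library of that line or of the treated ASCL2 line (adjusted p between 0.0511 and 0.201), and in the ASCL2 line the value was 0.13 ± 0.115 (adjusted p = 0.443). The difference of -0.51 ± 0.163 (adjusted p = 0.0492) was lost without any 1 library other than the second untreated one of the ASCL2 line (adjusted p between 0.0631 and 0.19).

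VEGFA, ADM, BNIP3L, ANKRD37, EGLN1, EGLN3, P4HA1 and ANGPTL4 passed in neither line. Their log2 fold changes ran from -0.66 (ANKRD37, an ankyrin repeat gene) to 1.15 (ANGPTL4, a lipoprotein lipase inhibitor) in the WiNTRLINC1 line. In the ASCL2 line they ran from -0.35 (VEGFA, the angiogenic growth factor) to 0.63 (ANGPTL4). ANGPTL4 was barely detected, with 8 and 10 in the treated and 3 and 4 in the untreated WiNTRLINC1 line, and 22 and 29 in the treated and 15 and 17 in the untreated ASCL2 line. VEGFA had 5082 and 5255 in the treated and 5520 and 5148 in the untreated WiNTRLINC1 line, and 2262 and 3322 in the treated and 2855 and 4247 in the untreated ASCL2 line. The groups of VEGFA overlapped in both lines, and in the ASCL2 line the second library of each pair was the higher. Without the first untreated library of that line the adjusted p was 0.0158, and without its second treated library 0.0232. With the replicate number as a block, limma called VEGFA lower in the ASCL2 line (-0.35, adjusted p = 0.00295). The labels do not say that equal replicate numbers belong together. The prolyl hydroxylases EGLN1 and EGLN3 had 0.12 and -0.03 in the WiNTRLINC1 line and 0.19 and 0.42 in the ASCL2 line, the collagen prolyl hydroxylase P4HA1 0.36 and 0.19, the vasodilator peptide gene ADM -0.18 and 0.08, and the mitophagy receptor BNIP3L 0.05 and -0.10.

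The response of the lines to doxycycline differed, by the test of the difference, in 10 of the 36 genes, with 4 higher and 6 lower in the WiNTRLINC1 line than in the ASCL2 line, where 7.39% of all genes tested were called higher and 7.6% lower. HK1, LDHB, PFKFB4 and CA9 were the 4 with the more positive response in the WiNTRLINC1 line. PGK1, SLC2A1, SLC16A3, BNIP3, NDRG1 and KDM3A had the more negative one. LDHB, at 0.37 ± 0.102 (adjusted p = 0.024), lost this call without the first treated or second untreated library of the WiNTRLINC1 line or without the second treated or first untreated library of the ASCL2 line (adjusted p between 0.0696 and 0.123). The differences of HK1, SLC16A3, PFKFB4 and KDM3A held under every alternative run, and the other 6 were not called without the trend (adjusted p between 0.0593 and 0.258).

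Before doxycycline the lines already differed in many of these genes. Untreated cells of the WiNTRLINC1 line were higher than untreated cells of the ASCL2 line in 18 of the 36 and lower in 9, with 9 not passing, where 55.2% of all genes tested were called, 25.7% higher and 29.5% lower. Both untreated libraries of the WiNTRLINC1 line lay above both of the ASCL2 line in 18 of the 37 genes and below them in 15. The untested SLC2A3 was among the 15, and over all genes tested the shares were 35.7% and 40.0%. The median log2 difference was 0.18 for the 36 genes and -0.04 for all genes tested. Line and hairpin target cannot be told apart here, since each target was studied in 1 line.

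CA12 was 6.57-fold higher in the untreated WiNTRLINC1 line (log2 2.715 ± 0.0864, adjusted p = 5.09e-12), from the library values given above, and CA9 4.47-fold (log2 2.16 ± 0.243, adjusted p = 2.69e-06). In both genes the untreated libraries of the lines stood far apart. EGLN3, which marks HIF for degradation and is itself a HIF target, had 570 and 562 in the untreated WiNTRLINC1 line and 205 and 215 in the untreated ASCL2 line. P4HA1 had 982 and 1035 in the untreated WiNTRLINC1 line and 442 and 550 in the untreated ASCL2 line. The differences of EGLN3 and P4HA1 were 1.43 ± 0.168 (adjusted p = 4.29e-06) and 1.03 ± 0.136 (adjusted p = 1.43e-05) on the log2 scale. NDRG1 was higher by 0.81 ± 0.103 (adjusted p = 9.19e-06). ANKRD37, with 54 and 62 in the untreated WiNTRLINC1 line and 26 and 27 in the untreated ASCL2 line, was higher by 1.10 ± 0.34 (adjusted p = 0.0128), and VEGFA by 0.61 ± 0.164 (adjusted p = 0.00514). Without the ASCL2 line's first untreated library ANKRD37 and VEGFA were not called (adjusted p = 0.0529 and 0.114, with VEGFA at 0.33), and ANKRD37 was not called without the second untreated library of the WiNTRLINC1 line either (adjusted p = 0.081).

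Genes on the lower side were led by ANGPTL4 (-1.92 ± 0.451, adjusted p = 0.00211), at the low values given above. ALDOC, the brain-type aldolase, had 999 and 819 in the untreated WiNTRLINC1 line and 1782 and 1990 in the untreated ASCL2 line (-1.06 ± 0.108, adjusted p = 1.04e-06). PKM was lower by -0.85 ± 0.0892 (adjusted p = 1.3e-06), HK1 by -0.63 ± 0.0746 (adjusted p = 4.8e-06), GAPDH by -0.53 ± 0.116 (adjusted p = 0.0013) and PFKFB4 by -0.52 ± 0.128 (adjusted p = 0.00312). The enzymes split, with 8 of 17 higher, 6 lower and 3 not passing, whereas 8 of the 14 other HIF targets were higher, 2 were lower and 4 did not pass. Among the genes of transport and flux control, PFKFB3 and PDK1 were higher, PFKFB4 was lower, and SLC2A1 and SLC16A3 did not pass. Of the smaller differences, that of PFKP was lost without the first untreated library of either line (adjusted p up to 0.139, with 0.17 as its value without that of the WiNTRLINC1 line), those of ALDOA and ENO2 without the second untreated library of either line (adjusted p up to 0.0706 and 0.133), that of LDHB without the WiNTRLINC1 line's first untreated library or the second of the ASCL2 line (adjusted p up to 0.106), and that of PGK1 without any 1 library other than the treated ones of the ASCL2 line (adjusted p up to 0.126).

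**Figure D5:**
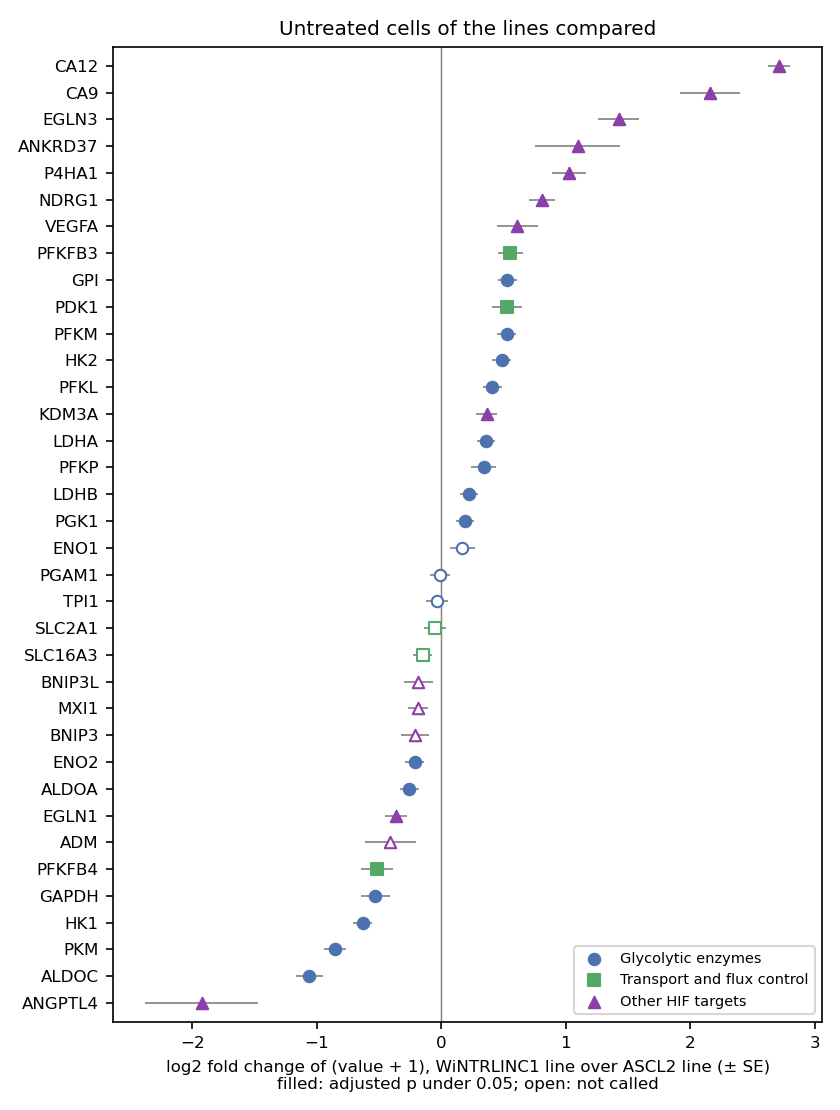
Log2 fold change of the deposited value plus 1 in untreated cells, WiNTRLINC1 line over ASCL2 line, for the 36 tested genes in order of size (points, with the standard error of the fit as lines), by group of genes; filled points have an adjusted p under 0.05. CA12 at 2.715 and CA9 at 2.16 lie at one end and ANGPTL4 at -1.92 at the other.

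The HIF system itself was read from 16 tested genes of 18 listed. In the WiNTRLINC1 line 4 rose and 0 fell (limma, with 3 lower at an unadjusted p under 0.05), where 9.54% of all genes tested rose and 9.03% fell. In the ASCL2 line 3 rose and 2 fell, which is near the shares of 13.9% and 12.7% over all genes tested. ELOB and ELOC, which form the elongin part of the VHL ligase, rose by 0.30 ± 0.0953 and 0.43 ± 0.106 on the log2 scale in the WiNTRLINC1 line (adjusted p = 0.0401 and 0.0106) and by 0.51 ± 0.0953 and 0.45 ± 0.106 in the ASCL2 line (adjusted p = 0.00112 and 0.00581). The ubiquitin ligase SIAH2, which acts on the prolyl hydroxylases, rose by 0.65 ± 0.101 in the ASCL2 line (adjusted p = 0.000241), where the HIF co-activator CREBBP fell by 0.45 ± 0.0781 (adjusted p = 0.000651). SIAH2 and CREBBP had 0.24 and -0.21 in the WiNTRLINC1 line and did not pass. Without limma's mean-variance trend the calls of ELOB and ELOC were lost in both lines. Their adjusted p was then 0.218 and 0.0893 in the WiNTRLINC1 line and 0.0547 and 0.0598 in the ASCL2 line. ELOB was not called in the WiNTRLINC1 line without any 1 of its libraries but the second treated one (adjusted p between 0.056 and 0.315, and 0.20 as its value without the first treated one), and ELOC was not without any 1 but the first untreated one (adjusted p between 0.0622 and 0.0818). The call of ELOC in the ASCL2 line was lost without its first untreated or first treated library (adjusted p = 0.0591 or above).

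The HIF subunits and VHL were singled out after their values were seen. HIF1A had 1987 and 2255 in the treated and 1757 and 1891 in the untreated WiNTRLINC1 line, and 1862 and 1839 in the treated and 1912 and 2063 in the untreated ASCL2 line. It passed in neither line, at 0.22 ± 0.0847 (adjusted p = 0.0955) and -0.10 ± 0.0847 (adjusted p = 0.422), though the treated libraries were above the untreated ones in the WiNTRLINC1 line and below them in the ASCL2 line. EPAS1, the other main HIF alpha subunit, had 47 and 87 in the treated and 30 and 45 in the untreated WiNTRLINC1 line, and 1302 and 1311 in the treated and 1038 and 934 in the untreated ASCL2 line. All ASCL2-line libraries thus stood far above all WiNTRLINC1-line libraries. In untreated cells the difference was -4.71 ± 0.234 on the log2 scale (adjusted p = 5.13e-10), called under every alternative run. EPAS1 rose in the WiNTRLINC1 line by 0.78 ± 0.234 (adjusted p = 0.0297), a call lost without the second treated or first untreated library of that line or without either treated library of the ASCL2 line (adjusted p between 0.0564 and 0.359). The value itself was 0.35 without that second treated library and 0.50 without that first untreated one. With the WiNTRLINC1 line fitted alone this rise was not called (adjusted p = 0.231). Nor was it called without limma's mean-variance trend (adjusted p = 0.198) or without the filter on low values (adjusted p = 0.224). In the ASCL2 line EPAS1 had 0.41 ± 0.234 (adjusted p = 0.229), with both treated libraries above both untreated ones, and it was called higher there in a fit to that line's 4 libraries alone (adjusted p = 0.0191). VHL rose by 0.41 ± 0.0963 in the WiNTRLINC1 line (adjusted p = 0.00748) and fell by 0.33 ± 0.0963 in the ASCL2 line (adjusted p = 0.0209), with a difference of 0.74 ± 0.136 (adjusted p = 0.00173). The rise was lost without any 1 library of the WiNTRLINC1 line but its second untreated one (adjusted p up to 0.0731), and the fall without any 1 library of the ASCL2 line but its first treated one (adjusted p up to 0.276, and -0.17 as its value without the second treated one). Without limma's mean-variance trend the difference of VHL was not called (adjusted p = 0.0702). Its rise in the WiNTRLINC1 line (adjusted p = 0.101) and its fall in the ASCL2 line (adjusted p = 0.131) were not called either. ARNT, the shared partner, passed in neither line, at 0.04 and 0.12.

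A wider list of 55 HIF targets, 49 of them tested, showed 10 rising and 7 falling in the WiNTRLINC1 line and 9 rising and 6 falling in the ASCL2 line, with medians of 0.15 and -0.06. Over all genes tested, 9.54% rose and 9.03% fell in the WiNTRLINC1 line, and 13.9% rose and 12.7% fell in the ASCL2 line, which are the shares to read this and the following lists against. HMOX1, the heme oxygenase, had 122 and 133 in the treated and 101 and 113 in the untreated WiNTRLINC1 line, and 893 and 944 in the treated and 306 and 283 in the untreated ASCL2 line, where it rose 3.11-fold (log2 1.64 ± 0.134, adjusted p = 6.4e-07). CITED2, a HIF target that blocks the HIF co-activators, had 337 and 377 in the treated and 312 and 331 in the untreated WiNTRLINC1 line, and 973 and 895 in the treated and 2540 and 1992 in the untreated ASCL2 line. It fell 2.41-fold in the ASCL2 line (log2 -1.27 ± 0.117, adjusted p = 2.09e-06). PLOD1, a collagen lysyl hydroxylase, rose by 0.77 ± 0.0719 in the ASCL2 line (adjusted p = 2.34e-06) and fell by 0.25 ± 0.0719 in the WiNTRLINC1 line (adjusted p = 0.0233), the fall being lost without any 1 library of that line but its second untreated one (adjusted p between 0.0774 and 0.173). ZNF395 fell in both lines, by 0.47 ± 0.0852 in the WiNTRLINC1 line (adjusted p = 0.00112) and by 0.92 ± 0.0852 in the ASCL2 line (adjusted p = 2.02e-06). HMOX1 and CITED2 passed only in the ASCL2 line, and their responses differed between the lines by -1.39 ± 0.189 (adjusted p = 0.000145) and 1.42 ± 0.166 (adjusted p = 4e-05).

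Around glycolysis, 12 of 18 further isozymes and side enzymes were tested. In the WiNTRLINC1 line 1 rose and 2 fell, and in the ASCL2 line 3 rose and 3 fell. ENO3, the muscle enolase, went against ENO2: it had 96 and 105 in the treated and 183 and 176 in the untreated WiNTRLINC1 line, and 105 and 106 in the treated and 213 and 207 in the untreated ASCL2 line. It fell 1.78-fold (log2 -0.83 ± 0.16, adjusted p = 0.00191) in the WiNTRLINC1 line and 1.98-fold (log2 -0.99 ± 0.16, adjusted p = 0.000353) in the ASCL2 line. TIGAR, a fructose bisphosphatase that slows glycolysis, rose by 0.49 ± 0.116 (adjusted p = 0.00814) in the WiNTRLINC1 line and by 0.33 ± 0.116 (adjusted p = 0.0485) in the ASCL2 line. The aldose epimerase GALM fell by 0.33 ± 0.109 (adjusted p = 0.0495) in the WiNTRLINC1 line and by 0.68 ± 0.109 (adjusted p = 0.000303) in the ASCL2 line. The hexokinase-like HKDC1 rose in the ASCL2 line by 0.61 ± 0.132 (adjusted p = 0.00333). The call of TIGAR in the WiNTRLINC1 line was lost without its first treated or first untreated library (adjusted p up to 0.0967), and that in the ASCL2 line without any 1 library other than the untreated ones of the WiNTRLINC1 line (adjusted p up to 0.246). GALM was not called in the WiNTRLINC1 line without any 1 of the 4 treated libraries or its own second untreated one, without which it had -0.19 (adjusted p up to 0.355), nor HKDC1 without the second treated or first untreated library of the ASCL2 line (adjusted p up to 0.0725, with 0.38 as its value without that treated library).

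Of 9 tested carriers beyond the members, 1 rose and 1 fell in the WiNTRLINC1 line and 2 rose and 1 fell in the ASCL2 line, which is near the shares over all genes tested. SLC16A1, the lactate carrier MCT1, and BSG, the chaperone that MCT1 and MCT4 need to reach the membrane, rose in the ASCL2 line by 0.54 ± 0.0849 (adjusted p = 0.000296) and 0.38 ± 0.0762 (adjusted p = 0.00187). Their values in the WiNTRLINC1 line, 0.21 and -0.22, did not pass. The call of BSG in the ASCL2 line was lost without limma's mean-variance trend (adjusted p = 0.0517). BSG had 17375 and 17013 in the treated and 20870 and 19179 in the untreated WiNTRLINC1 line, and 39437 and 43818 in the treated and 32329 and 31620 in the untreated ASCL2 line. SLC2A6, a hexose carrier of inner membranes, rose by 1.03 ± 0.18 in the WiNTRLINC1 line (adjusted p = 0.00093) and fell by 0.80 ± 0.18 in the ASCL2 line (adjusted p = 0.00398), the fall being lost without the second treated or first untreated library of that line (adjusted p up to 0.0651). It stood at 107 and 93 in the treated and 60 and 39 in the untreated WiNTRLINC1 line, and at 913 and 830 in the treated and 1695 and 1365 in the untreated ASCL2 line. Its rise in the WiNTRLINC1 line was not called without the trend (adjusted p = 0.0538) or with that line fitted alone (adjusted p = 0.0578). Nor was its fall in the ASCL2 line called without the trend (adjusted p = 0.07). The sodium-glucose carrier SLC5A1 fell in the WiNTRLINC1 line by 0.31 ± 0.0937 (adjusted p = 0.0302), a call lost without any one of that line's 4 libraries (adjusted p between 0.0818 and 0.166). Of 7 tested carbonic anhydrases other than CA9 and CA12, 0 passed in the WiNTRLINC1 line by limma, also at an unadjusted p under 0.05. CA5B passed in the ASCL2 line, where it fell by 0.70 ± 0.202 (adjusted p = 0.018), but not without any 1 of that line's libraries other than the first treated one (adjusted p between 0.053 and 0.207, with -0.45 as its value without the second treated one).

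Gluconeogenesis, the reverse route, was represented by 6 tested genes, of which 1 rose and 2 fell in the WiNTRLINC1 line and 0 rose (limma, also at an unadjusted p under 0.05) and 2 fell in the ASCL2 line. PCK1, its entry enzyme in the cytosol, had 1425 and 1506 in the treated and 2491 and 2885 in the untreated WiNTRLINC1 line, and 136 and 115 in the treated and 871 and 806 in the untreated ASCL2 line. It fell 1.83-fold (log2 -0.87 ± 0.108, adjusted p = 4.44e-05) in the WiNTRLINC1 line and 6.65-fold (log2 -2.73 ± 0.108, adjusted p = 6.31e-10) in the ASCL2 line. G6PC3, a glucose 6-phosphatase, fell by 0.81 ± 0.0888 in the WiNTRLINC1 line (adjusted p = 1.59e-05) with 0.04 in the ASCL2 line, and SLC37A4, which carries glucose 6-phosphate into the endoplasmic reticulum, fell by 0.36 ± 0.0875 in the ASCL2 line (adjusted p = 0.00683). The pyruvate carboxylase PC rose by 0.42 ± 0.109 in the WiNTRLINC1 line (adjusted p = 0.013). The call of PC was lost without the first treated or second untreated library of the WiNTRLINC1 line (adjusted p up to 0.141), and that of SLC37A4 without the first treated or first untreated library of the ASCL2 line (adjusted p up to 0.0602).

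Pyruvate dehydrogenase, which passes pyruvate to the mitochondrial cycle, and its control genes numbered 11 tested, with 3 rising and 1 falling in the WiNTRLINC1 line and 4 rising and 0 falling in the ASCL2 line (limma, also 0 lower at an unadjusted p under 0.05). PDHA1, its catalytic alpha subunit, rose by 0.36 ± 0.0714 (adjusted p = 0.00252) in the WiNTRLINC1 line and by 0.54 ± 0.0714 (adjusted p = 6.59e-05) in the ASCL2 line. PDHB and PDHX rose in the WiNTRLINC1 line by 0.39 ± 0.0769 (adjusted p = 0.00216) and 0.40 ± 0.0808 (adjusted p = 0.00285), with -0.04 and -0.16 in the ASCL2 line, while DLD rose in the ASCL2 line by 0.44 ± 0.0729 (adjusted p = 0.000421) with 0.08 in the WiNTRLINC1 line. PDHB, PDHX and DLD differed between the lines, by 0.43 for PDHB, 0.56 for PDHX and -0.36 for DLD on the log2 scale (adjusted p = 0.014, 0.00358 and 0.0296). Fitted without limma's mean-variance trend, PDHA1 (adjusted p = 0.057) and PDHB (adjusted p = 0.0555) were not called in the WiNTRLINC1 line.

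The pentose phosphate pathway branches off at glucose 6-phosphate. Of its 8 tested genes, 3 rose and 1 fell in the WiNTRLINC1 line and 2 rose and 3 fell in the ASCL2 line. The transaldolase TALDO1 rose by 0.23 ± 0.0722 in the WiNTRLINC1 line (adjusted p = 0.0355) and fell by 0.60 ± 0.0722 in the ASCL2 line (adjusted p = 2.78e-05), with the rise lost without any one of the 4 libraries of the WiNTRLINC1 line (adjusted p between 0.0897 and 0.204). The transketolase TKT rose in the ASCL2 line by 0.35 ± 0.0699 (adjusted p = 0.00192) with -0.02 in the WiNTRLINC1 line. H6PD, the enzyme of the endoplasmic reticulum, fell by 0.77 ± 0.116 (adjusted p = 0.000259) in the WiNTRLINC1 line and by 0.44 ± 0.116 (adjusted p = 0.0117) in the ASCL2 line, where the call was lost without any 1 library of the line but its second untreated one (adjusted p between 0.0543 and 0.0853).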

How the data were processed

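Libraries of RNA from LS174T cells had been sequenced, aligned and counted by the submitters. The submitters' processing notes name cutadapt, TopHat2 2.0.9, Cufflinks and DESeq, and the builds hg19, GRCh37 and mm9 without their roles. How reads were counted, and whether by strand, is not given in the sources used here. Treated as a score are the deposited values, 1 per Ensembl gene and library: they are whole numbers with nearly equal totals and, in 7 of 8 libraries, gaps or pile-ups among low values, which is how scaled and rounded counts look, so the read depth is unknown and no count model was used.

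Symbols were found for 51959 of 57736 genes, and genes without one held 1.132% of the summed values. GENCODE v29 gave chromosomes and merged exon lengths only. Values were taken as log2(value + 1), and genes with at least 10 in at least 2 libraries were fitted over all 8 libraries with limma 3.58.1 (R 4.3.3; mean-variance trend, 4 residual and 10.5 prior degrees of freedom) and Benjamini-Hochberg adjustment over 22100 genes. The pseudocount understates changes of low genes. Tables were made in Python 3.11.15 with pandas 2.3.3, and the fit was tested on simulated data. The members, lists and comparisons were chosen with earlier results of these data known. By rule, full values are given for members called in at least 1 doxycycline comparison, and up to 4 called genes are named from each further list. Samples were grouped by title. The alternatives were pseudocounts of 5 and 0.5, no filter, median-of-ratios scaling, quantile normalization, no trend, each line fitted alone, a replicate block and leaving out each library. Endothelial marker PECAM1 and the antisense gene HIF1A-AS2 found no match by symbol and were not used here. A gene of the pentose phosphate list is not reported here.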

Additional observations from a re-analysis of the deposited data

Results flagged for a closer look

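The response to doxycycline differed between the lines in 10 of the 36 tested genes, by limma's test of the difference (WiNTRLINC1 line minus ASCL2 line, log2 scale, Benjamini-Hochberg adjusted p under 0.05), where 15.0% of all genes tested were called. Among the glycolytic enzymes the difference was 0.853 for HK1, 0.366 for LDHB and -0.589 for PGK1. Among the genes of transport and flux control it was 1.695 for PFKFB4, -0.526 for SLC2A1 and -0.708 for SLC16A3. The other HIF targets with a difference were CA9 at 1.144, KDM3A at -1.069, NDRG1 at -0.542 and BNIP3 at -0.507. With 2 libraries per group, no test for a library standing apart within its group could be made.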

How the results depend on the processing

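Of the members called, 7 of 15 in the WiNTRLINC1 line (HK1, ENO2, SLC16A3, PFKFB4, CA12, KDM3A and MXI1), 7 of 15 in the ASCL2 line (PFKP, ENO2, SLC2A1, SLC16A3, CA12, NDRG1 and KDM3A), 4 of 10 for the difference and 20 of 27 between the untreated lines were called under every alternative run. Without the mean-variance trend 1873 genes were called in the WiNTRLINC1 line (against 4104), 3410 in the ASCL2 line (against 5884) and 1313 for the difference (against 3314), and of the members 7 were higher and 1 lower in the WiNTRLINC1 line, 7 higher and 0 lower in the ASCL2 line, and 2 higher and 2 lower for the difference. Without the filter 2395 genes were called in the WiNTRLINC1 line and 1914 for the difference, with 2 members lower in the WiNTRLINC1 line and 2 higher and 3 lower for the difference. With each line fitted alone 2713 genes were called in the WiNTRLINC1 line, with 2 members lower there and 1 lower in the ASCL2 line. The difference of ALDOA reversed to 0.322 under quantile normalization (adjusted p = 0.0331). There ALDOA, ENO1 and LDHA were also called higher in the WiNTRLINC1 line (adjusted p = 0.0175, 0.0294 and 0.0235). The cause of these changes was not tested. Leaving out 1 library gave 2393 to 4126 calls in the WiNTRLINC1 line (9 to 12 members higher, 2 to 4 lower), 3662 to 5824 in the ASCL2 line (7 to 13 higher, 2 to 5 lower), 2316 to 2891 for the difference (2 to 4 higher, 3 to 6 lower) and 10455 to 12016 between the untreated lines (14 to 18 higher, 7 to 10 lower). The labels do not say that equal replicate numbers mark a shared culture or day, and with 2 pairs per line the data do not settle it: deviations of equal numbers correlated at 0.302 in the WiNTRLINC1 line and -0.143 in the ASCL2 line over 13215 genes. With the replicate number as a block 4298, 6148, 3511 and 12398 genes were called in these 4 comparisons, with 5 members lower in the ASCL2 line, among them VEGFA (-0.35, adjusted p = 0.00295). PFKFB4 was also called lower there under the block (adjusted p = 0.0487). ALDOA, PDK1 and EPAS1 were called higher there under the block (adjusted p = 0.0427, 0.04 and 0.0488). The crossed pairing in the ASCL2 line, chosen after seeing the data, gave 7164 calls. Of the members' values under the alternatives, 2109 kept direction and side of the threshold, 124 lost and 34 gained a call. Read depth is unknown, which limits what can be said of SLC2A3 and ANGPTL4, and copies that may share reads limit 9 of the enzymes. ENO1 is not counted among the 9, since its summed copies held at most 0.14% of its value.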

Other observations

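Of 13215 genes whose mean reached 100 or more, 19 (0.144%) were at least 1.4 times higher in the second library than in the first among both treated and untreated cells of the ASCL2 line. This ratio was chosen after seeing the data. The members and further pathway genes gave 3 of 129: DDIT4 (2.12 times treated, 2.07 times untreated), STC2 (1.87 and 1.94) and VEGFA (1.47 and 1.49). In the WiNTRLINC1 line the same ratios were 1.17 and 1.07 for DDIT4, 1.15 and 1.15 for STC2, and 1.03 and 0.933 for VEGFA.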
